A study of Rattus norvegicus with 232 samples.

Results

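The levels of 10 imprinted genes were followed in the brain of inbred rats: Meg3, Peg3, Peg10, Snrpn, Ndn, Nnat, Impact, Sgce, Plagl1 and Grb10. They were taken by symbol, without a rule on their values, and all 10 of 10 were found among the 20859 features of the RefSeq gene table. Meg3 is listed there under its older symbol RGD1566401, which the RefSeq gene list gives as a synonym. 3 questions were put to each gene, namely its level in brain, the share of its variance that lies between strains, and whether it differs between recombinant inbred strains that descend from opposite directions of the founding cross.

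The material was brain of untreated male rats, labelled whole brain, sequenced as stranded total RNA after removal of ribosomal RNA. The methods of the study describe young adults and 1 side of a sagittally cut brain for the HXB/BXH and part of the inbred strains, and the age of the LEXF/FXLE rats is not given in the sources used here. The gene table holds 214 libraries from 197 animals of 74 strains. The HXB/BXH recombinant inbred panel descends from BN-Lx/Cub and SHR/OlaIpcv and is represented by 20 HXB strains with 58 animals and 10 BXH strains with 30 animals. The LEXF/FXLE panel descends from LE/Stm and F344/Stm and is represented by 12 LEXF strains with 26 animals and 7 FXLE strains with 17 animals. A further 25 inbred strains with 66 animals include the progenitors. Every strain is inbred, no gene was altered and no agent was given. A strain is 1 genotype, and its animals are the replicates of that genotype. Most strains have 3 animals, 15 have 2 and 5 have 1. SHR/OlaIpcv has only 2 animals in this table, sequenced in 12 and 6 libraries that were averaged per animal.

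An imprinted gene is transcribed mainly from the copy inherited from 1 parent, because DNA methylation laid down in the egg or the sperm marks the parental copies differently. The brain is one of the tissues where such genes are most used, in neuronal growth, feeding and maternal behaviour. In an inbred rat both copies of a gene carry the same sequence, so the parental origin of a transcript cannot be read from these totals. What can be read is how much RNA the expressed copy or copies give. Because this is bulk tissue, fewer cells of a type and less RNA per cell cannot be told apart.

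Promoter sequences of 3 loci that carry the comparisons below are shown first, from RefSeq on the GRCr8 build. Each runs from 250 bases before to 50 after the annotated start, 5′ to 3′ on the gene's strand, with every CpG, the dinucleotide that carries the imprinting methylation, in capitals. Plagl1 is shown because it had the largest R2 between strains of the 10. It lies at chr1:9297214-9297513 on the plus strand. Peg10 is shown because its window, chr4:33808776-33809075 on the plus strand, shares 263 bases with the window of Sgce, whose start lies 238 bases away on the opposite strand. Snurf, at chr1:120339104-120339403 on the minus strand, is shown because its window shares 66 bases with that of Snrpn and both starts are on the same strand, 234 bases apart.
Plagl1: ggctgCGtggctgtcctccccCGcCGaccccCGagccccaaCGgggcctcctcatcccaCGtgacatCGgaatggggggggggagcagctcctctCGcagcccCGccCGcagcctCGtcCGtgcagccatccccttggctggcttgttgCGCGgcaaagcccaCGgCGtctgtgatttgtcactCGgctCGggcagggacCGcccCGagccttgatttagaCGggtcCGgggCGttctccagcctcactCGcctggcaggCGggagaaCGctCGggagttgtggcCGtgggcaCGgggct
Peg10: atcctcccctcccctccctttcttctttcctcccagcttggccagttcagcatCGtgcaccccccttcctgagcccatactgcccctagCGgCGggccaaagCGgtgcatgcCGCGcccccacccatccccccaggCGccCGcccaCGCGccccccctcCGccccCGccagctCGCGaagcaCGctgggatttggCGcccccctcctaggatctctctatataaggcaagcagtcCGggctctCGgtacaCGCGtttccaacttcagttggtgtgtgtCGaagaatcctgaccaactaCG
Snurf: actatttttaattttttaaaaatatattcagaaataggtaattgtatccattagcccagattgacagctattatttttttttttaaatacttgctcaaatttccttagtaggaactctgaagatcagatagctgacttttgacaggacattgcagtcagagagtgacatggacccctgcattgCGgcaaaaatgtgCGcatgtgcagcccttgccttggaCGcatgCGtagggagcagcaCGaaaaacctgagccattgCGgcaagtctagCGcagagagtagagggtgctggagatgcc

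The Plagl1 window holds 29 CpG, more than 88.5% of the 33465 promoter windows of this length. Peg10 and Sgce hold 22 and 23, Snrpn 11 and Snurf 7, where the median window holds 7. Grb10 was the most CpG-rich member with 44. Of the 9 members with a window in the table, 8 held more CpG than the median and Impact, with 5, did not. Nnat had no entry.

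Values are given on the deposited log2 scale, which is not corrected for transcript length, so genes are compared with themselves across strains and not with each other. For each gene the mean of each strain was taken over its animals, and strains were compared in the 192 animals of 69 strains with at least 2 animals. Cross directions were compared over the means of all strains of a panel. R2 is the share of the variance among animals that lies between strains. With this many strains and animals, R2 averages 0.356 for a gene with no strain effect, the ratio of the degrees of freedom. A strain effect was called at an adjusted p under 0.05 in limma's moderated F-test, with Benjamini-Hochberg adjustment over all genes.

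Plagl1, Meg3 and Peg3 differed between strains, and the other 7 members did not pass the test. The distance from the lowest to the highest strain had a median of 0.464 on the log2 scale over the members, against 0.469 over all genes above the median level. The 3 calls among 10 members stand beside a background of 36.8% of all genes called in the same test. The median R2 was 0.442 over the members and 0.434 over all genes.

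**Figure D1:**
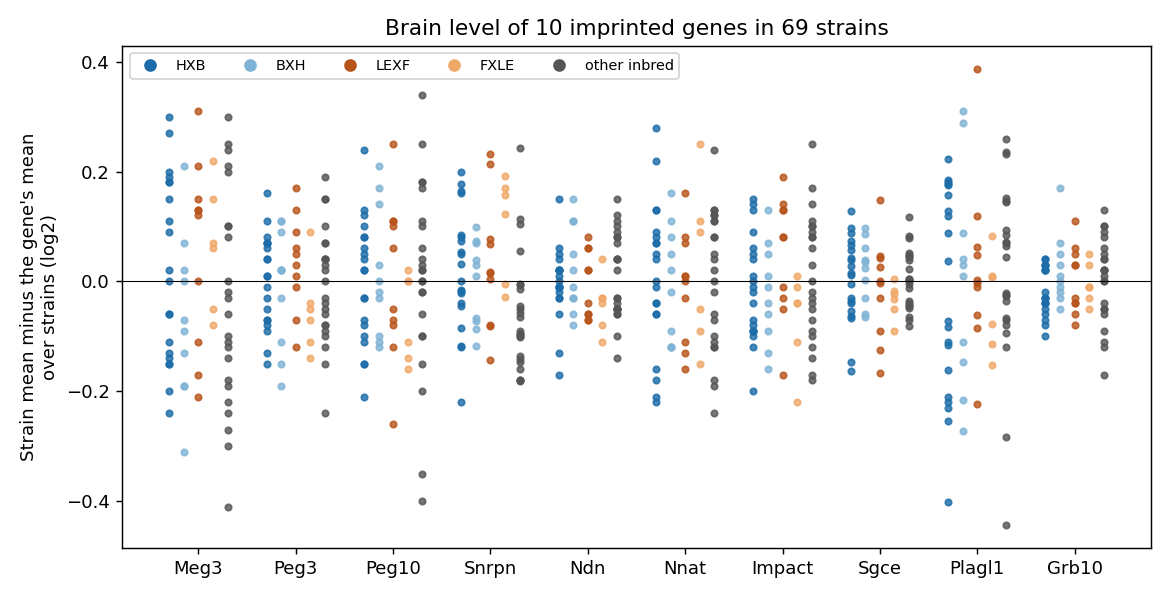
Strain means of the 10 members on the log2 scale, each minus the gene's mean over 69 strains, with 1 point a strain coloured by cross. Plagl1 spreads from 7.36 to 8.19, while the strains of Grb10, Ndn and Sgce lie within 0.34 of each other.

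Plagl1, a zinc finger transcription factor that restrains cell growth and is transcribed from the paternal copy, had the largest strain effect of the 10. Its strain means ran from 7.36 in SR/JrHsd through a median of 7.81 to 8.19 in LEXF5/Stm, a 1.78-fold range. The SD between strain means was 0.167 and the SD within strains 0.159. R2 was 0.625 and the adjusted p 4.34e-07 (limma F-test). Within the HXB/BXH strains R2 reached 0.683 (adjusted p = 1.25e-05 by limma), and within the inbred strains 0.594 (adjusted p = 0.0132). Within LEXF/FXLE it was 0.496 (adjusted p = 0.319). Without the animals numbered 2, the HXB/BXH adjusted p was 0.052, and without those numbered 1 or 2 the inbred adjusted p was 0.281 or 0.303.

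The extreme strains of Plagl1 are given by animal as a description, since they were picked by their means. The 3 SR/JrHsd animals were at 7.30, 7.41 and 7.37. HXB10/Ipcv, the lowest recombinant strain, had 7.35 and 7.45 in its 2 animals. BXH13/Cub, the highest of its panel, had 7.99, 8.23 and 8.13. BXH10/Cub had 8.02, 8.21 and 8.05, and LEXF5/Stm 7.97 and 8.41. Animals of SR/JrHsd and HXB10/Ipcv lay at the low end and those of the other 3 strains at the high end, as the choice of strains sets.

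The progenitors did not mark the limits of the Plagl1 range. BN-Lx/Cub averaged 7.73 ± 0.27 (SD, n = 3) and SHR/OlaIpcv 7.52 ± 0.20 (SD, n = 2). Of the 30 HXB/BXH strains, 16 lay above both progenitors, 13 between them and 1 below. Members without a call also left the progenitors' span, with 24 strains above both for Grb10 and 25 below both for Sgce. For Ndn, 25 lay between. Normal mixtures fitted to the 69 strain means, or to the 30 HXB/BXH means, preferred a single cluster for Plagl1. The same held for the other 9 members, where 8.99% of all genes had more than 1 cluster over all strains and 11.7% over the HXB/BXH strains.

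**Figure D2:**
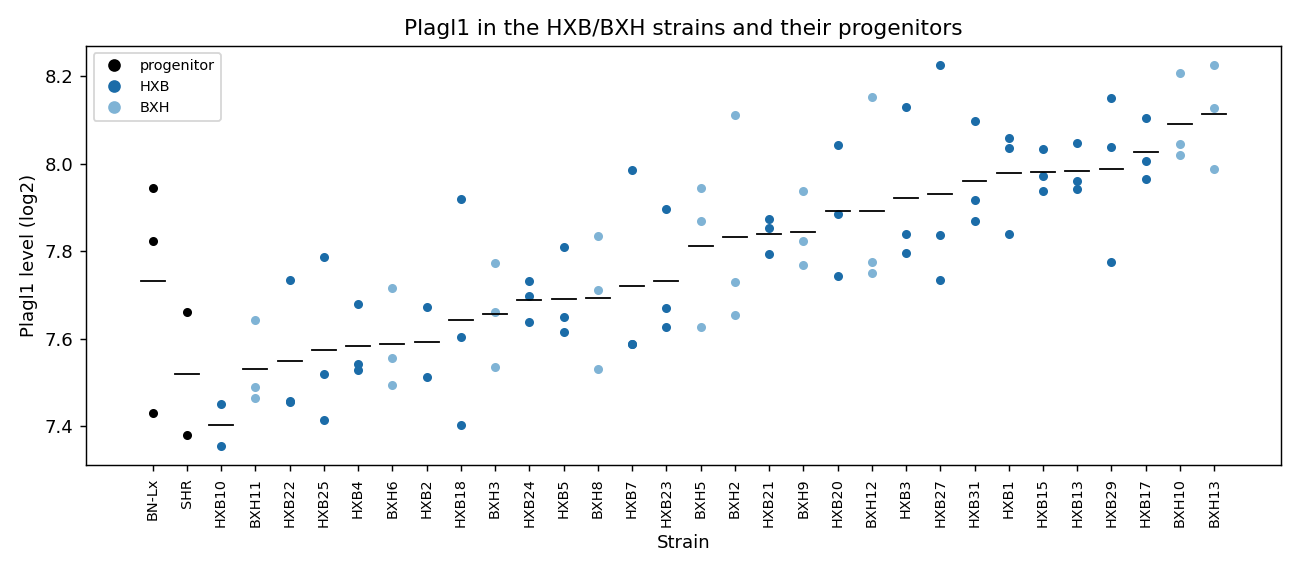
Plagl1 level on the log2 scale in each animal (points) of BN-Lx/Cub, SHR/OlaIpcv and the 30 HXB/BXH strains, ordered by strain mean (bars). Strain means run from 7.40 in HXB10 to 8.11 in BXH13, and HXB and BXH strains are interleaved along the order.

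Blood transcripts ran against Plagl1, and their part in its strain effect was tested only as a covariate. Over the 69 strain means, Plagl1 and the mean level of the blood list Hba-a1, Hbb and Alas2 had a Pearson r of -0.578, and r was -0.547 within HXB/BXH, -0.644 within LEXF/FXLE and -0.653 within the inbred strains. These are descriptions across strains that share batches. Other lists ran with Plagl1 in single panels. The neuronal list had r of 0.569 within HXB/BXH but 0.238 over all strains, and the microglial list -0.595 within LEXF/FXLE but -0.0324 over all strains. Their part in the Plagl1 level was not tested. LEXF5/Stm had the lowest blood level of all strains, 11.6, and BXH13/Cub the third lowest, 11.7. SR/JrHsd ranked 66 of 69 at 13.0, HXB10/Ipcv ranked 65 at 12.98, and SHR/OlaIpcv ranked 69 at 13.3. HXB29/Ipcv and BXH5/Cub also had high blood levels, 13.05 and 13.26. Their Plagl1 was 7.99 and 7.81, where the median of all strains was 7.81. With the blood level of each animal as a covariate, a setting chosen after seeing the data, the Plagl1 strain effect kept an adjusted p of 0.000201 over all strains and 0.000283 within HXB/BXH in limma. Within the inbred strains it lost its call (adjusted p = 0.137). HXB10/Ipcv animal 1 also had a high level of liver genes, 13.75 against a median of 8.02. Without the animals numbered 1, Plagl1 had an adjusted p of 0.00678 within HXB/BXH (limma).

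Meg3, a long noncoding RNA transcribed from the maternal copy of its domain, was the member with the next largest R2, 0.493 (adjusted p = 0.00961 by limma). Strain means ran from 12.18 in LH/MavRrrc through a median of 12.59 to 12.90 in LEXF1C/Stm, with COP/CrCrl next at 12.89. The SD between strain means was 0.175 and the SD within strains 0.218, so animals of 1 strain spread more than strain means did. Within no panel did Meg3 pass the test, with adjusted p of 0.132 in HXB/BXH, 0.28 in LEXF/FXLE and 0.0682 in the inbred strains (limma). Its RefSeq transcript had R2 of 0.506 (adjusted p = 0.019 by limma) in the transcript table. Without the animals numbered 1 or 2, the gene-level adjusted p was 0.218 or 0.233. Without those numbered 3, Meg3 passed within the inbred strains (adjusted p = 0.0456 by limma). Within LEXF/FXLE, Meg3 had r of 0.635 with a neuronal list and 0.643 with a hypothalamic list, but 0.102 and 0.113 over all strains. With an astrocyte list r was -0.415 within HXB/BXH and -0.202 over all. The part of these lists in the Meg3 level was not tested.

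Peg3, a paternally expressed zinc finger protein, passed with R2 of 0.477 (adjusted p = 0.0288 by limma). Its range was narrow, from 14.88 in SR/JrHsd through 15.13 to 15.31 in M520/N, a 1.35-fold range. The 3 M520/N animals were at 15.36, 15.32 and 15.25 and the 3 SR/JrHsd animals at 14.72, 14.88 and 15.04. These are the extremes of the 69 means. The astrocyte list had r of 0.623 with Peg3 within HXB/BXH and 0.312 over all strains, the microglial list -0.507 within the inbred strains and -0.193 over all, and the liver list -0.614 within LEXF/FXLE and 0.0573 over all, and their part in the Peg3 level was not tested. The call was lost without the animals numbered 1 (adjusted p = 0.563) or 2 (adjusted p = 0.162), and in the reconstructed gene table (adjusted p = 0.123).

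Peg10, a gene of retrotransposon origin that is expressed from the paternal copy, ranged from 10.44 in SR/JrHsd to 11.18 in MWF/Hsd, with R2 of 0.434 and an adjusted p of 0.101 (limma). Without the animals numbered 2 it passed over all strains (adjusted p = 0.0167 by limma). Among the inbred strains alone it passed, with R2 of 0.545 and an adjusted p of 0.0435 (limma). Its 3 SR/JrHsd animals, at 10.33, 10.52 and 10.48, stand beside the MWF/Hsd animals at 11.39, 11.11 and 11.04, again the extremes by choice. That call was lost with batch as a covariate (adjusted p = 0.0926 by limma), and without the animals numbered 1, 2 or 3 (adjusted p of 0.538, 0.0716 and 0.244).

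The remaining 6 members spanned 1.24-fold to 1.44-fold between their extreme strains. Nnat, a small membrane protein of developing neurons, was nearest the threshold, with strain means from 12.69 in BN-Lx/Cub to 13.21 in HXB2/Ipcv, R2 of 0.456 and an adjusted p of 0.0536 (limma). With batch as a covariate Nnat passed, with an adjusted p of 0.0011. Its strain means had r of 0.566 with the hypothalamic list and 0.515 with the choroid plexus list, and the part of tissue makeup in its level was not tested. Grb10, an adaptor that dampens insulin and growth factor receptors, ran from 11.0 to 11.34 with R2 of 0.449 (adjusted p = 0.116), and passed with batch as a covariate (adjusted p = 0.0315 by limma).

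Ndn, a neuronal growth suppressor of the Prader-Willi domain, ran from 12.21 in HXB27/Ipcv to 12.53 in HXB2/Ipcv with an adjusted p of 0.162. Snrpn, a splicing protein encoded in the same domain, ran from 8.61 in HXB13/Ipcv to 9.08 in GK/FarMcwi with an adjusted p of 0.292. Impact, an inhibitor of the stress kinase that slows translation, ran from 13.32 in FXLE15/Stm to 13.79 in BN-Lx/Cub with an adjusted p of 0.191. Sgce, the epsilon subunit of the sarcoglycan complex, ran from 9.52 in LEXF5/Stm to 9.83 in LEXF10A/Stm with an adjusted p of 0.181. All 4 p-values are from limma. Over all strains Sgce had r of -0.49 with the neuronal list. Impact had r of -0.384 with that list and -0.425 with a list of endothelial genes. Each of these r was negative within every panel. The part of these lists in the Sgce and Impact levels was not tested. Snrpn had the smallest R2 of the members in the RefSeq gene table, 0.391. In the older Ensembl table, with fewer strains, its R2 was 0.461 and not the smallest. Snurf and Snrpn are made from 1 bicistronic transcript, so how the counting shared their reads bears on the Snrpn value. The Snurf gene averaged 14.43 and the Snrpn gene 8.83, levels that are not corrected for length. How their reads were shared was not tested.

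**Figure D3:**
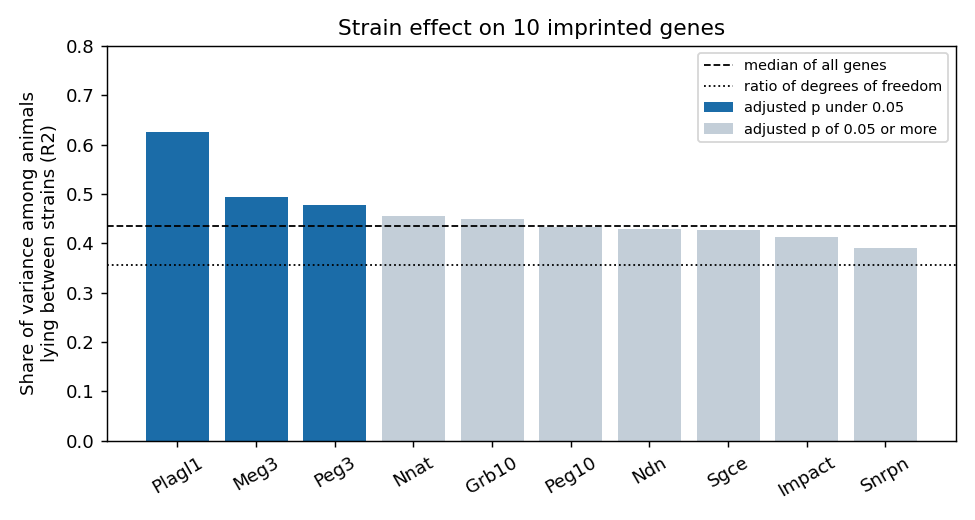
R2 of each member over 192 animals of 69 strains, with dark bars for an adjusted p under 0.05. Plagl1 stands at 0.625, Meg3 and Peg3 at 0.493 and 0.477, and the other bars lie between 0.391 and 0.456, around the dashed line at 0.434, the median of all genes, and above the dotted line at 0.356.

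Within the panels, 1 member was called in HXB/BXH (Plagl1), where 19.1% of all genes were, and 2 in the inbred strains (Plagl1 and Peg10), where 18.6% were. None was called in LEXF/FXLE, where 5% of all genes were, and at an unadjusted p under 0.05 in limma none of the 10 passed there either, where 22.8% of all genes did. The smallest unadjusted p in that panel was 0.0544, for Impact (limma).

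SR/JrHsd was the lowest of the 69 strains for 4 of the 10 members, Peg3, Peg10, Plagl1 and Grb10, where it was lowest for 1.91% of all genes. The strain was picked from the 69 for this count. The 4 genes are not independent, since Peg10 had r of 0.727 with Grb10 and 0.7 with Peg3 over strain means. The share of all genes is therefore no test of the count. From the lowest strain SR/JrHsd ranked 3 for Impact, 6 for Nnat, 22 for Sgce, 26 for Ndn and 35 for Snrpn. It ranked 60 of 69 for Meg3, which averaged 12.80 ± 0.34 (SD, n = 3) there. The companion strain SS/JrHsd did not share the lowest place for Peg3, Peg10, Plagl1 and Grb10, with ranks from the lowest of 28, 57, 57 and 63. The 1 of 4 listed pituitary genes that was found, Cga, was lowest of all strains in SR/JrHsd, at 2.33 against a median of 3.32, and highest in SS/JrHsd, at 5.92. Over the 69 strain means Cga had r of 0.539 with Grb10 and 0.446 with Peg10, as a description. Within the inbred strains r was 0.626 and 0.63, and within LEXF/FXLE 0.523 and 0.468. Within HXB/BXH it was 0.372 with Grb10 and 0.0278 with Peg10. Cga was low in these data, with a mean level of 3.47 where library medians lay between 8.185 and 8.424. The hypothalamic list was highest in SS/JrHsd, at 7.47. In SR/JrHsd the olfactory bulb list had the lowest mean of all strains, 6.74 against a median of 7.43, and the hypothalamic list the second lowest, 6.77 against 7.13. The neuronal list ranked 67 of 69, and the blood list 66. Their part in these low levels was not tested. BN-Lx/Cub, lowest for Nnat and highest for Impact, was the lowest strain for 7.22% and the highest for 9.8% of all genes.

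HXB and BXH strains descend from the same progenitors by crosses in opposite directions, and no member passed the test between them. Both copies of a gene are alike in such inbred strains. Neither this comparison nor that of LEXF with FXLE can therefore show which parent's copy was transcribed. The differences of strain means, HXB minus BXH, lay between -0.0395 for Grb10 and 0.091 for Meg3 on the log2 scale, and 5 of 10 were above 0. Plagl1, whose strains varied most, averaged 7.78 ± 0.19 (SD, n = 20) in HXB and 7.80 ± 0.20 (SD, n = 10) in BXH, a difference of -0.0215 with a 95% interval of -0.166 to 0.123. Meg3 averaged 12.61 ± 0.17 (SD, n = 20) in HXB and 12.52 ± 0.15 (SD, n = 10) in BXH, with an interval of -0.0332 to 0.215. Across the members the intervals covered 0.892-fold to 1.16-fold in this fit, which has no term for batch. All adjusted p were 1 (limma). Of all genes 0% passed at 5% FDR, and 3.71% had an unadjusted p under 0.05, while 0 of the 10 members did.

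Grb10 had the smallest unadjusted p of the members, 0.0911 in limma and 0.0499 in a two-sided permutation test, 1 of 10 such tests in this comparison. Its HXB strains ran from 11.07 through 11.14 to 11.21 and its BXH strains from 11.12 through 11.17 to 11.34. The 2 ranges overlap from 11.12 to 11.21. Sequencing batch and cross direction were partly confounded. The 7 batches of this panel included 5 with both crosses, and 12 HXB animals and 13 BXH animals were in batches with no animal of the other cross. With batch as a covariate and strain as a random block, the Grb10 difference was -0.0902 (adjusted p = 0.184 by limma) and the Meg3 difference 0.181 (adjusted p = 0.32). In that fit 1.59% of all genes passed and 0 of the 10 members did. The Plagl1 difference was -0.0912 (adjusted p = 0.631) and the Peg10 difference -0.0811 (adjusted p = 0.694), where without batch it was -0.0149. The Grb10 difference with batch lay below its interval without batch, -0.0856 to 0.00668. Those of Meg3, Plagl1 and Peg10 lay inside theirs. No interval was computed in the fit with batch, so the intervals above apply only to the fit without it.

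Between LEXF and FXLE strains no member passed either. This comparison also used the means of LEXF2B/Stm, LEXF9/Stm and FXLE13/Stm, which rest on 1 animal each. The differences, LEXF minus FXLE, lay between -0.0953 for Snrpn and 0.0791 for Impact. Of the 10, 9 were above 0, but 7 were with batch as a covariate and 5 without the animals numbered 2. Snrpn averaged 8.84 ± 0.14 (SD, n = 12) in LEXF and 8.94 ± 0.09 (SD, n = 7) in FXLE, with an interval of -0.218 to 0.0272. The lowest of these means, 8.55, was the single animal of LEXF2B/Stm. The Snrpn difference turned to 0.0869 in the reconstructed gene table. It was 0.0352 in the older Ensembl table, which holds 2 LEXF and 3 FXLE strains, and those 5 strains alone gave 0.116 in the RefSeq table. Impact averaged 13.57 ± 0.11 (SD, n = 12) and 13.49 ± 0.10 (SD, n = 7), with an interval of -0.0285 to 0.187. No adjusted p was below 0.999 (limma). Of all genes 0% passed and 4.12% had an unadjusted p under 0.05, while 0 of the 10 members did. In a two-sided permutation test 0 of 10 members had p under 0.05. All 5 batches of this panel held both crosses.

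**Figure D4:**
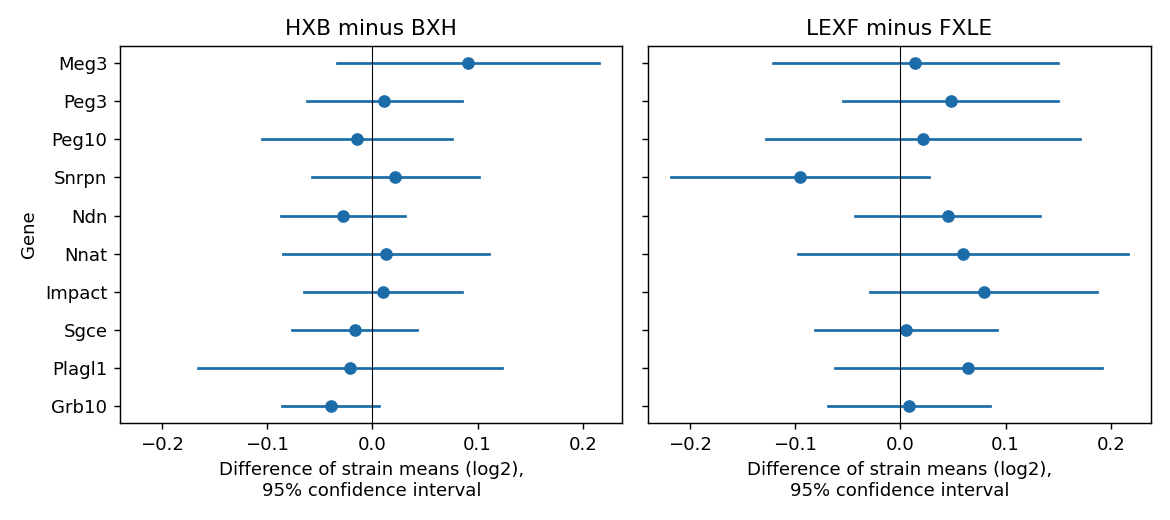
Difference of strain means between cross directions for each member on the log2 scale, with 95% confidence intervals, for 20 HXB against 10 BXH strains and 12 LEXF against 7 FXLE strains. Every interval includes 0, and every difference lies between -0.0953 and 0.091.

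The progenitors BN-Lx/Cub and SHR/OlaIpcv were compared directly, with the spread taken over all strains. None of the 10 members was called, where 4.51% of all genes were. Impact came nearest. Its BN-Lx/Cub animals were at 14.09, 13.66 and 13.61 and its SHR/OlaIpcv animals at 13.43 and 13.37. The difference was 0.391 with a 95% interval of 0.114 to 0.667 (adjusted p = 0.0873 by limma). Without the animals numbered 3 it was 0.479 and passed (adjusted p = 0.0261 by limma), while with batch as a covariate it was 0.552 (adjusted p = 0.173) and 0.165 in the reconstructed gene table (adjusted p = 0.688). The batch fit counted each SHR/OlaIpcv animal under its lowest batch number only, though its value averages libraries of several batches. Nnat stood at 12.39, 13.00 and 12.67 in BN-Lx/Cub and at 12.98 and 13.04 in SHR/OlaIpcv. The difference was -0.328, with an adjusted p of 0.203 in limma. The 2 strains overlapped for Nnat. In the HXB/BXH strains 28 of 30 Impact means and 23 of 30 Nnat means lay between the progenitors. For Meg3, whose progenitors stood at 12.53 and 12.56, 15 strains lay above both and 15 below.

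Peg10 and Sgce, the only members within 1 Mb of each other, share the promoter region shown above. Their strain means were not detectably correlated, with r of 0.164 (two-sided permutation p = 0.179) and Spearman's rho of 0.207 (permutation p = 0.0882) over 69 strains. Without the 2 strains farthest from the median of Peg10, r was 0.175. Within HXB/BXH, LEXF/FXLE and the inbred strains r was 0.129, 0.0758 and 0.254, and after batch was removed -0.084. Neither Peg10 nor Sgce was called over all strains, which limits what a low r can show.

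Among all 45 pairs, described without a test because they were looked at after the data were seen, Peg10 and Grb10 had the largest r, 0.727 over 69 strains. It was 0.529 within HXB/BXH, 0.595 within LEXF/FXLE and 0.896 within the inbred strains. Neither Peg10 nor Grb10 was called over all strains (R2 of 0.434 and 0.449). Their strain means also carry the spread between animals. Peg3 and Peg10 had r of 0.70, Ndn and Grb10 0.566, and Peg3 and Impact 0.543. Meg3 ran the other way, with r of -0.56 against Sgce and -0.50 against Peg3. Strains share batches. After batch was removed, r was 0.842 for Peg10 and Grb10, 0.361 for Peg3 and Peg10, 0.716 for Ndn and Grb10, and 0.692 for Peg3 and Impact. For Meg3 it was -0.309 against Sgce and -0.712 against Peg3. The batch terms were fitted on the same animals, each entered under its lowest batch number. Their error enters the strain means of both genes of a pair and can move r either way, here and for Peg10 and Sgce.

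**Figure D5:**
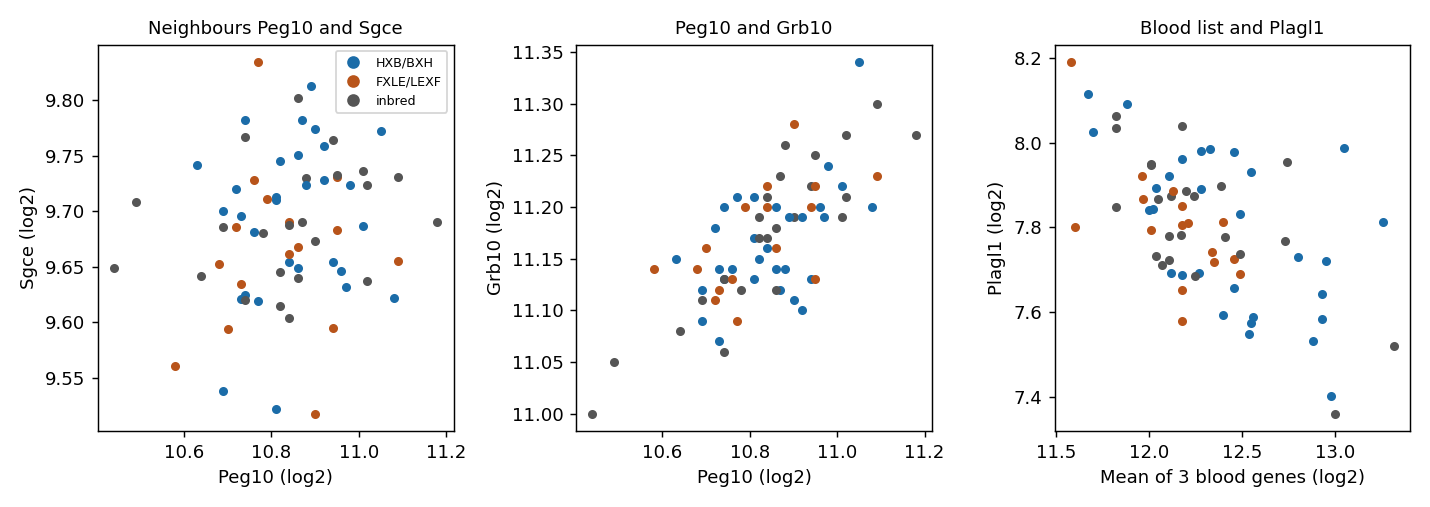
Strain means on the log2 scale for Peg10 against Sgce, Peg10 against Grb10 and the mean of 3 blood genes against Plagl1, with 1 point for each of 69 strains coloured by panel. The neighbours Peg10 and Sgce form a diffuse cloud (r of 0.164), Peg10 and Grb10 rise together (r of 0.727), and Plagl1 is lower where blood genes are higher (r of -0.578).

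The genes whose strain means were most like a member's, of the 10429 above the median level, included another member in 1 instance. Grb10 was most like Dchs2 (r of 0.735) and then Peg10 (0.727). Impact was most like Usp29 (r of 0.843), itself an imprinted gene of the Peg3 domain, and Chic1 (0.838). Meg3 was most like Miat (0.914), also a long noncoding RNA, and Leng8 (0.885). Peg3 was most like Nova1 (0.809) and Kctd9 (0.805), Peg10 like Dchs2 (0.773) and Gpr165 (0.759), and Sgce like Rtraf (0.741) and Vapa (0.732). Nnat was most like Smim1 (0.718) and MGC94207 (0.706), Ndn like Saraf (0.69) and LOC102555659 (0.65), Plagl1 like Lrrc8c (0.622) and Sec31a (0.588), and Snrpn like Ilkap (0.545) and Mthfd1l (0.534).

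Of 54 further imprinted genes, listed from what is known in mouse, 47 were measured. Of these, 19 had a strain effect at 5% FDR (40.4%), beside the 36.8% of all genes. They were 7 of 18 listed as paternally and 12 of 29 listed as maternally expressed. The median R2 was 0.447. The 5 with the highest R2 among them began with Cdkn1c, a cell cycle inhibitor listed as maternally expressed, at 0.703. Next was Igf2, a growth factor listed as paternally expressed, at 0.68. Ago2 followed at 0.633, Ddc, the decarboxylase that makes dopamine and serotonin, at 0.629, and the transporter Slc22a2 at 0.625. None of the 47 passed between cross directions in either panel. At an unadjusted p under 0.05 in limma there was 1 between HXB and BXH, where 3.71% of all genes passed, and 0 between LEXF and FXLE, where 4.12% did, so neither count exceeds the background.

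Between the progenitors 2 of the 47 passed, where 4.51% of all genes did, so the count is near the background. Both were lower in BN-Lx/Cub. Cdkn1c stood at 7.83 in BN-Lx/Cub and 8.84 in SHR/OlaIpcv. The difference was -1.02 on the log2 scale (adjusted p = 1.4e-06 by limma). Igf2 stood at 11.8 and 12.4, a difference of -0.64 (adjusted p = 0.0053 by limma). Choroid plexus, where Igf2 is made in adult brain, had a list mean of 9.41 in BN-Lx/Cub and 9.89 in SHR/OlaIpcv, and its part in these 2 differences was not tested.

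At the transcript level 9 members had 20 RefSeq transcripts in the table, and Peg10 had none. Of the 20, 2 were called, where 13.3% of all transcripts were, so the count does not exceed the background. They were the Plagl1 transcript (R2 of 0.633, adjusted p = 1.88e-06 by limma) and the Meg3 transcript. Nnat was split over 5 transcripts, of which the main 2 averaged 11.85 and 11.84, and neither passed. Transcripts of Grb10 varied within strains with an SD of 0.458 to 1.81, against 0.0845 for the gene as a whole.

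The defining markers of brain were present. The mean of 5 neuronal genes lay between 13.93 and 14.27 over strains and that of 5 oligodendrocyte genes between 14.42 and 15.03. The liver list had a median of 8.02 over animals but stood at 18.9 in the single LE/Stm animal, 13.75 in 1 HXB10/Ipcv animal and 13.31 in 1 BXH6/Cub animal. LE/Stm entered no test of the members. In the 3 LEW/Crl animals, labelled male, the Y-linked gene Kdm5d stood at 9.57 to 9.64, against a median of 10.62 in the others, whose range of 9.32 to 11.39 includes these values. Without the LEW/Crl animals, the called members over all strains were Peg3, Plagl1 and Meg3.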

How the data were processed

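Whole brain total RNA was measured in 232 labelled samples of 74 strains. According to the submitters' processing notes, the authors used cutadapt 1.9.1, Bowtie2, HISAT2, StringTie, RSEM and DESeq2. The deposited values are on a log2 scale, in the paper's methods a regularised log of counts adjusted for unwanted variance. The notes of 148 samples name the rn6 genome. How this version of the gene table was made is not given in the sources used here. Without counts, depth is unknown. Medians of the libraries lay between 8.185 and 8.424. Of the gene values, 5 exceeded 30 on the log2 scale, with the highest at 36.9, and they were left in. Whether any of them belong to the liver list was not examined.

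The 73 spike-in rows and 26 unassigned transcripts were left out. Libraries of 1 animal were averaged. Batch was the labelled batch characteristic, which differs from the batch in the title for 26 samples. An animal sequenced in several batches was entered under the lowest of its batch numbers. Strains were compared with limma 3.58.1 in R 4.3.3 over animals, and cross directions over strain means, with 95% intervals. Benjamini-Hochberg adjustment ran over all features. Modality used mclust 6.1.1 (up to 3 normal clusters of equal variance). Permutation tests drew 100000 shuffles and are two-sided. Steps were tested on simulated data. Of 45965 transcripts, 32722 matched a symbol. Promoters came from RefSeq (GRCr8). Nothing says whether animals of 1 strain shared a litter. For strain effects and progenitors, p-values measure against the spread between animals of a strain, pooled over strains. For cross directions without batch they measure against the spread between strain means. Permutation tests shuffled strain means.

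Named genes were the 10 members, for each member the 2 genes above the median level with the most similar strain means, and from the wider list the 5 with the highest R2 and those past 5% FDR in a comparison. The members and lists were chosen with earlier results of these data known. Alternatives were batch or animal number as a covariate, left-out animals, higher features alone, 2 other gene tables with 8 members each (the older Ensembl one with 58 strains), LE/Stm and LEW/Crl left out, and 1 library per animal.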

Additional observations from a re-analysis of the deposited data

Results flagged for a closer look

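Among the FXLE and BXH strains, a strain far from the others of its cross appeared for 2 members. Peg10 stood at 11.22 in FXLE13/Stm, which has 1 animal, against a median of 10.84 over the 7 FXLE strains, and the gap to the nearest strain was 0.672 of the whole range. Grb10 stood at 11.34 in BXH12/Cub, against a median of 11.17 over the 10 BXH strains, with a gap of 0.466 of the range, at the critical value. The 20 sets of strain means examined were those of the members in the FXLE and BXH strains, not in HXB or LEXF. Chance alone gives about 1 such strain in 20 sets.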

How the results depend on the processing

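The count of members with a strain effect, 3 of 10, was 5 with batch as a covariate (54.3% of all genes called), 4 in the fit with a replicate block on the animal number (38.2%), 1 of 8 in the reconstructed gene table (20.6%), and between 1 and 4 when the animals of 1 number were left out (14.9% to 29.3%). Plagl1 was called in each of these fits. Within HXB/BXH the count of 1 became 2 with batch (32.1% of all genes), 0 among genes above the median level (14.7%), which do not include Plagl1, and 0 to 1 on leaving animals out (8.2% to 9.12%). Within the inbred strains the count of 2 became 1 with batch (15.1%), 1 with the replicate block (17.1%), 1 in the older Ensembl table (14.3%) and in the reconstructed one (8.15%), 0 among genes above the median level (11.9%), and 0 to 2 on leaving animals out (6.08% to 10.7%). Within LEXF/FXLE it became 1 in the older Ensembl table (Impact, 15.5% of all genes), which holds 58 of the 74 strains and only 5 of this panel, so that table and strains changed together. Between the progenitors it was 0 to 1 on leaving animals out (3.91% to 6.19%). The cause of these changes was not tested, apart from the fewer animals and genes that the settings themselves bring. Between cross directions the members' count was 0 under every alternative run. Between HXB and BXH, 331 genes of all 20859 passed with batch, 2 with the replicate block and 0 in the main fit. The fit with batch also took animals in place of strain means, with strain as a random block, so more than batch changed.

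Animal numbers carry no shared origin in the labels. Between strains, deviations from the strain mean correlated at 0.013 on average for animals with the same number and at -0.00626 for the rest. With the replicate block, Nnat gained its call (adjusted p = 0.0411 by limma) and Peg10 lost its call in the inbred strains (0.0529). Of 715 values for single members, 688 kept their side of the threshold, and none changed sign with a call in either fit, but 35 values without a call changed sign. Those of Nnat, Plagl1, Grb10 and Snrpn between LEXF and FXLE in the older Ensembl table also appear in the RefSeq table when it is limited to the same 5 strains. The progenitor fit without the animals numbered 1, which leaves SHR/OlaIpcv with 1 animal, was not run. The unknown depth limits what can be said of small differences.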

Other observations

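A transcript of Snurf, the upstream reading frame of the Snurf-Snrpn locus, had a larger R2 than any member gene or member transcript, while transcripts of Grb10 and Nnat had wider ranges of strain means. It is the less abundant of 2 RefSeq transcripts of Snurf and was singled out after its values were seen. Its strain means ran from 8.03 in HXB1/Ipcv to 10.75 in GK/FarMcwi, with R2 of 0.904, and they fell into 2 groups, 26 strains from 8.03 to 9.34 and 43 strains from 9.66 to 10.75. Of the HXB/BXH strains 10 were in the low group and 20 in the high one, and of the LEXF/FXLE strains 11 and 5. BN-Lx/Cub stood at 8.94 and SHR/OlaIpcv at 10.48, a difference of -1.54 on the log2 scale (adjusted p = 4.72e-05 by limma). BN/NHsdMcwi, the strain from which the rat reference genome was made, stood at 8.30 ± 0.16 (SD, n = 3).

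The other Snurf transcript ran only from 14.16 to 14.48 and had r of -0.173 with the first over 69 strains. Snrpn as a gene had r of -0.189 with it. At the level of the gene, Snurf ran from 14.27 in COP/CrCrl to 14.53 in FHH/EurMcwi and was not called (R2 of 0.426, adjusted p = 0.221 by limma). How reads were divided between the 2 transcripts was not tested.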
